A study of Homo sapiens with 12 samples.

Results

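Double-strand break repair genes were followed here as a set of 44 genes, picked by name for their roles in sensing DNA breaks, homologous recombination, end joining, the Fanconi pathway and the handling of lesions left by type 2 topoisomerases. They are 44 of the 57773 genes listed in the count tables, and all 44 had enough counts to be among the 21518 genes tested. The mRNAs were measured by RNA sequencing in WI-38 cells, a line of human lung fibroblasts with a limited lifespan in culture, in 4 groups of 3 libraries. Proliferating cells received the vehicle DMSO for 8 days and a non-targeting siRNA pool (siCtrl). The other groups were cells 8 days into senescence brought on by 50 µM etoposide, transfected with siCtrl, with a pool against NTRK2 mRNA, which encodes the receptor TrkB (siNTRK2), or with a pool against BDNF mRNA, which encodes a TrkB ligand (siBDNF). Every pool was used at 25 nM, so both control groups had also been transfected. The labels do not say whether the 3 libraries of a group came from separate cultures, so the p-values measure the spread between these libraries only.

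A double-strand break is recognised by the MRE11, RAD50 and NBN complex, which activates the kinase ATM, while ATR answers to single-stranded DNA. Breaks are then joined directly by the Ku proteins, DNA-PKcs and the XRCC4 and LIG4 ligase, or are copied from the sister chromatid by homologous recombination, a route used in S and G2 phases. The Fanconi proteins act with recombination where a crosslink blocks a replication fork. Etoposide traps type 2 topoisomerases on cut DNA, which makes these genes the ones a cell draws on after the treatment, and many recombination genes are known targets of the E2F factors that drive transcription in cycling cells.

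The libraries held 31567912 to 72328151 counts (median 57265462). NTRK2 was at 0 counts in the 3 siNTRK2 libraries and at 7, 15 and 10 counts in siCtrl-transfected senescent cells, near the floor of detection of 3 counts. BDNF was at 48.1, 48.9 and 44.3 normalized CPM (counts scaled to the size of each library) with siBDNF, against 161, 157 and 169 with siCtrl. All 8 fibroblast markers exceeded 1 CPM in every library, with a summed level of 23000 to 33800 CPM. Leukocyte markers summed to 0.157 to 0.215 CPM in proliferating cells, where 3 of 4 were at 0, and to 0.954 to 1.95 CPM in the senescent groups. Epithelial markers summed to 17.1 to 19.5 CPM in proliferating and 38.4 to 57.4 CPM in senescent libraries. Nearly all of this sum was KRT19, with means of 17.8 CPM in proliferating and 50.9 CPM in siCtrl-transfected senescent cells. EPCAM, CDH1 and KRT5 were each under 1 CPM in every library. The part of these marker signals in the results was not tested. In bulk RNA, fewer cells with an mRNA cannot be told apart from less of it in each cell.

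The promoters of 4 members are printed first, because they carry the motif letters whose shares are counted after them. They are the genes RAD51AP1 and BLM, whose mRNAs were among those that fell furthest in senescence, BRIP1, which responded to siNTRK2 and not detectably to siBDNF, and XRCC4, the member that rose most. Each is the 250 bases before the start site in RefSeq, build GRCh38.p14, read 5′ to 3′ on the strand of the gene, and capitals mark the letters of the motifs searched on both strands. These were the CCAAT box, the cell cycle homology region (TTTGAA) and a pair of E2F cores, one spelled GCGGGAA and the other TTGGCGC.
RAD51AP1, chr12:4538640-4538889, plus strand: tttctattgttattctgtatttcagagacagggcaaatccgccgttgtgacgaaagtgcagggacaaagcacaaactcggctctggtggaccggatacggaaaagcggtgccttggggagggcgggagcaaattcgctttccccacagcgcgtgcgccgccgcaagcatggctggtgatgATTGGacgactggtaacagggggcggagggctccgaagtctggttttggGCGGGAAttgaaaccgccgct
BLM, chr15:90717096-90717345, plus strand: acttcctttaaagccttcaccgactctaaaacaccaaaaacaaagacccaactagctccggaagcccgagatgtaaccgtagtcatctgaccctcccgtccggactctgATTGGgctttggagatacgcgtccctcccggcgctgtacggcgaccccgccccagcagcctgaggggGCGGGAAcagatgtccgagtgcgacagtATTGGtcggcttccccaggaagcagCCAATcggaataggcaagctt
BRIP1, chr17:61863529-61863778, minus strand: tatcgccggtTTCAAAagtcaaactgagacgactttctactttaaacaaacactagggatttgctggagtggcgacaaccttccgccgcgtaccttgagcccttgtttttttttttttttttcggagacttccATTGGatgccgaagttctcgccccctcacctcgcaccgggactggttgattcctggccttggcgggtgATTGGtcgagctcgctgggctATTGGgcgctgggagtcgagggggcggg
XRCC4, chr5:83077297-83077546, plus strand: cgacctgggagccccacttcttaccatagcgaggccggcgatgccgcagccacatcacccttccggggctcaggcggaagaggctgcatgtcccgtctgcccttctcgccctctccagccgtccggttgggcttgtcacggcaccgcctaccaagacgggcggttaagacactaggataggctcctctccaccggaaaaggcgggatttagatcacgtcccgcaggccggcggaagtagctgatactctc

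In RAD51AP1 the capitals are a CCAAT box in reverse (ATTGG) starting 70 bases before the start and GCGGGAA starting 21 bases before it. In BLM they are GCGGGAA at 74 bases and CCAAT letters at 141, 46 and 21 bases. BRIP1 holds CCAAT letters at 117, 49 and 28 bases and TTTGAA in reverse at 240 bases, and XRCC4 has no motif in these bases. RefSeq windows that also take in the 50 bases after the start were at hand for 39 of the 44 members. WRN, XRCC5, PRKDC, NBN and FANCI had none. In these longer windows, on which the shares below rest, BRIP1 also had 1 E2F core and XRCC4 had 1 CCAAT. BLM had 3 E2F cores there, including the printed one. An E2F core was present in 36.8% of the members' 57 windows and in 9.23% of all 35116 windows. Among the 16 members whose mRNA fell over 2-fold in senescence, 11 had a window with an E2F core (56.5% of 23 windows), against 7 of the 23 other members with windows (23.5% of 34 windows). The windows of EXO1, FANCB and BRCA2, which also fell over 2-fold, held none of the motifs searched. The printed promoters are thus examples and do not stand for all members that fell. CCAAT was found in 47.4% of the members' windows and 34.6% of all windows, and TTTGAA in 10.5% and 15.2%. TTGGCGC and ATTGG can share bases, some genes have several overlapping windows, and a match of letters is a description, not a binding site.

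Senescence lowered most of the set. Between siCtrl-transfected senescent and proliferating cells, 32 of 44 mRNAs fell and 4 rose at an adjusted p under 0.05, while 8 did not pass. The same rule called 28.3% of all genes tested lower and 29.8% higher. The median log2 fold change of the members was -0.56, against 0.02 for all genes. A decrease of over 2-fold was seen for 16 members, against 5.16% of all genes, and none of the 4 increases reached 2-fold, a size that 11.6% of all genes reached. The 3 libraries of both groups did not overlap for 32 members that were lower in senescence and for 4 that were higher, against 29.8% and 31.5% of all genes. Just inside 2-fold lay TOP2B, with a log2 fold change of -1.04, and just outside it FANCI, with -0.97. Adjusted p-values here and below are from edgeR's quasi-likelihood test over all 21518 genes.

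**Figure D1:**
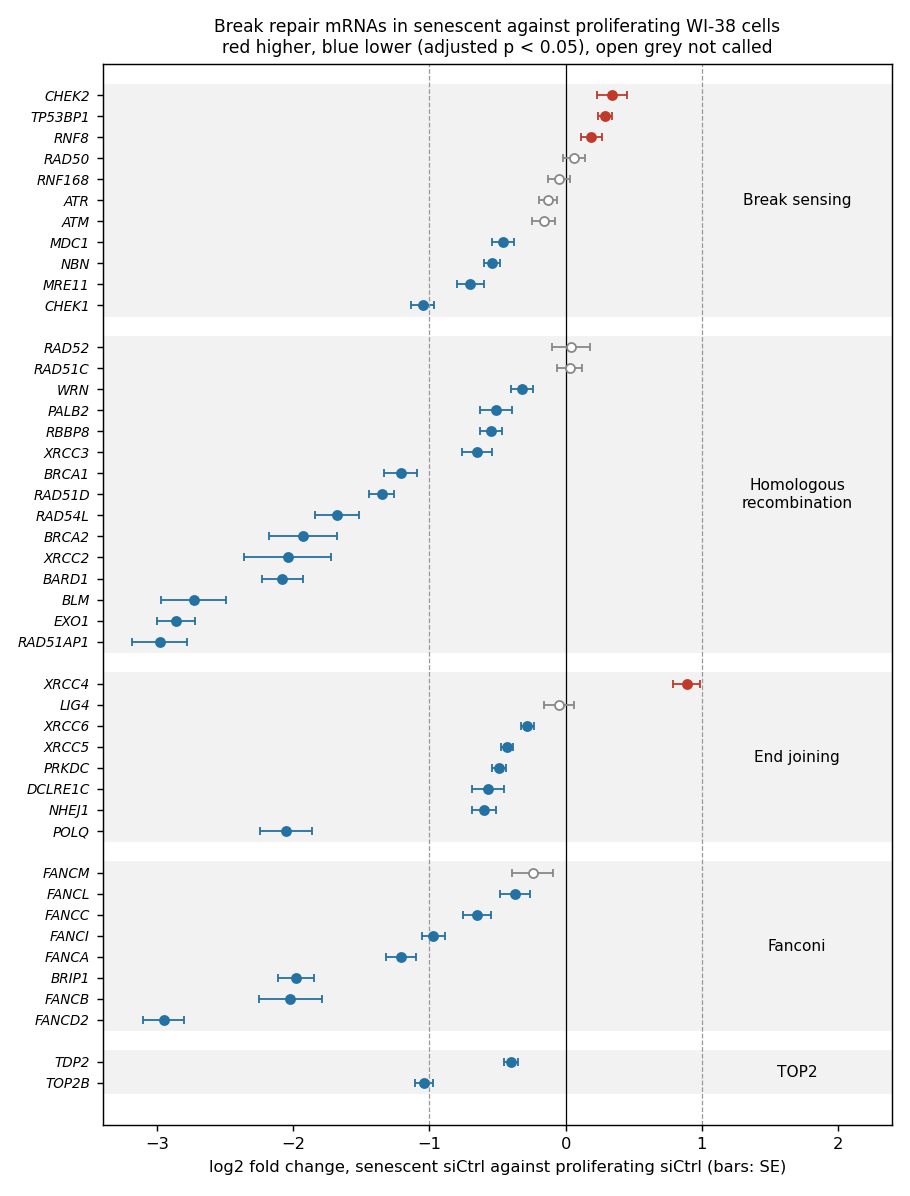
The log2 fold change of each of the 44 mRNAs between siCtrl-transfected senescent and proliferating cells (horizontal axis, with standard errors) is grouped by role, and dashed lines mark 2-fold. Homologous recombination and Fanconi genes reach down to -2.98, most break sensing genes stay within 2-fold, and XRCC4 stands apart at 0.89.

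Homologous recombination genes fell most. Of 15 members, 13 fell (86.7%, against 28.3% of all genes), 9 of them over 2-fold. RAD51C and RAD52 did not pass the test. The class had a median log2 fold change of -1.35. RAD51AP1, which takes part in the pairing of DNA strands, was at 6.44, 5.95 and 4.57 CPM in proliferating cells and at 0.624, 0.844 and 0.692 CPM in senescent cells, a decrease of 7.87-fold (log2 fold change -2.98, SE 0.20, adjusted p = 3.4e-12; SE, standard error). It is encoded at 4647964 to 4669213 of chromosome 12 in hg19, the build of the counts. Even the lowest proliferating library stood far above the highest senescent one. EXO1, an exonuclease that widens the resected end (chromosome 1, 242011269 to 242058450), was at 10.3, 9.46 and 8.85 CPM before and 1.34, 1.40 and 1.19 CPM in senescence, a decrease of 7.28-fold (SE 0.14 on the log2 scale, adjusted p = 3.35e-15). BLM, the helicase that dissolves joined recombination intermediates (chromosome 15, 91260577 to 91359396), went from 3.43, 4.30 and 3.11 CPM to 0.410, 0.517 and 0.710 CPM, a decrease of 6.63-fold (adjusted p = 6.01e-10). In all 3 genes the groups were far apart.

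BARD1, the partner of BRCA1 in its ubiquitin ligase, was at 6.62, 7.05 and 7.90 CPM in proliferating and 1.82, 1.57 and 1.71 CPM in senescent cells, a decrease of 4.22-fold (SE 0.15 on the log2 scale, adjusted p = 7.61e-12). XRCC2, which acts in recombination with RAD51D, was measured on few counts, 101, 86 and 62 in proliferating and 22, 26 and 17 in senescent libraries, and fell by 2.04 on the log2 scale (SE 0.32, adjusted p = 4.89e-06). BRCA1, at 7.12, 7.25 and 6.33 CPM and then 2.53, 3.43 and 2.99 CPM, fell by 1.21. BRCA2, which acts once ends are resected, fell by 1.93, RAD54L by 1.68 and RAD51D by 1.35. These decreases were all larger than the spread between libraries. Smaller ones were measured for XRCC3 (-0.65), RBBP8, which starts resection (-0.55), PALB2, the bridge between BRCA1 and BRCA2 (-0.51), and the helicase WRN (-0.32). The call of WRN was lost under 1 or more of the alternatives listed below, over which its log2 fold change was -0.42 to -0.08. RAD51C, at 8.90 to 9.86 CPM in proliferating and 9.25 to 9.83 CPM in senescent libraries, overlapped completely. RAD54L, XRCC3 and RAD51D share exon sequence with the more highly or similarly counted genes LRRC41, KLC1 and a readthrough gene, and whether reads were counted by strand is not given in the sources used here, so their values are less certain.

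The Fanconi genes followed closely, with 7 of 8 lower (87.5%, against 28.3% of all genes) and a median of -1.09. FANCD2, the protein that is ubiquitinated at a stalled fork (chromosome 3, 10068054 to 10143616), was at 10.5, 10.8 and 9.04 CPM in proliferating and 1.43, 1.43 and 1.07 CPM in senescent cells. That is a decrease of 7.72-fold (log2 fold change -2.95, SE 0.15, adjusted p = 5.54e-15). FANCB, part of the ubiquitin ligase core, was at 3.30, 3.21 and 2.54 CPM and then 0.820, 0.793 and 0.623 CPM (log2 fold change -2.02, adjusted p = 3.54e-08). BRIP1, the BRCA1-bound helicase also called FANCJ (chromosome 17, 59756500 to 59940920), was at 9.51, 9.49 and 9.12 CPM and then 2.05, 2.52 and 2.54 CPM, a decrease of 3.95-fold (adjusted p = 1.46e-12). The groups were apart in each of the 3. FANCA fell by 1.21, FANCI by 0.97, FANCC by 0.65 and FANCL, the ligase subunit, by 0.37. The call of FANCL was lost under 1 or more of the alternatives, over which its log2 fold change was -0.47 to -0.17. The translocase FANCM was at 3.95, 3.13 and 3.03 CPM and then 2.83, 2.67 and 3.06 CPM, which overlap, and did not pass (adjusted p = 0.161). FANCA, FANCC and FANCL share exon sequence with ZNF276, AOPEP and VRK2 on the other strand, each counted more often, so their values are less certain. DCLRE1C and NBN likewise share exon sequence with SUV39H2 and OSGIN2 on the other strand.

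**Figure D2:**
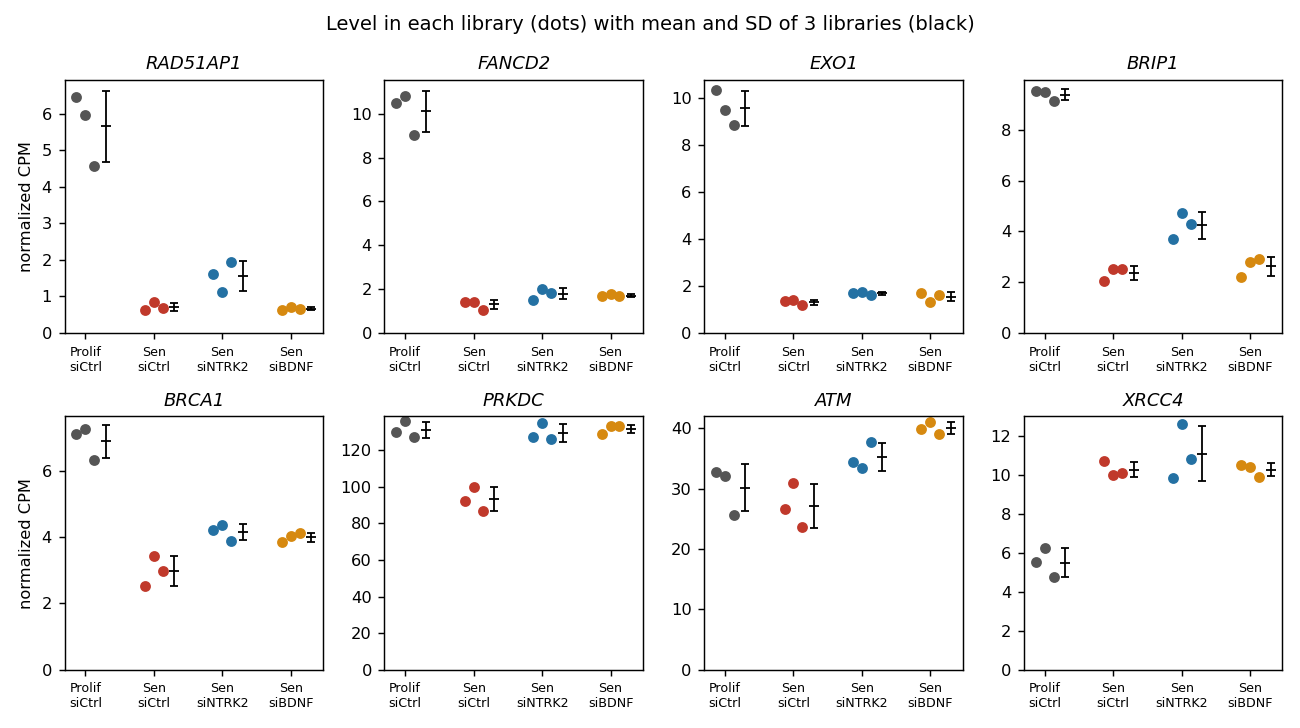
Normalized CPM in each library (dots) with the mean and SD of 3 libraries (black) is drawn for 8 members in the 4 groups, on linear axes that start at 0. RAD51AP1, FANCD2, EXO1, BRIP1 and BRCA1 are lower in all senescent groups, PRKDC lies near its proliferating level with either siRNA, ATM is highest with siBDNF, and XRCC4 is higher in every senescent library.

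End joining genes moved less, apart from both ends of the class. Of 8 members, 6 fell and 1 rose (75.0% and 12.5%, against 28.3% and 29.8% of all genes). POLQ, the polymerase of the alternative end joining route, was at 4.61, 4.33 and 3.63 CPM and then 0.766, 1.10 and 1.18 CPM (log2 fold change -2.05, SE 0.19, adjusted p = 8.75e-10). XRCC4, the scaffold of ligase IV (chromosome 5, 82373317 to 82649606), was at 5.53, 6.23 and 4.74 CPM in proliferating and 10.7, 10.0 and 10.1 CPM in senescent cells, an increase of 1.85-fold (log2 fold change 0.89, SE 0.10, adjusted p = 7.22e-08). Every senescent library lay above every proliferating one. Its ligase LIG4 overlapped between the groups, at 14.2, 12 and 9.61 CPM and then 10.4, 12.6 and 11.8 CPM (adjusted p = 0.723). NHEJ1, which stabilises that complex, was at 13.4, 14.2 and 12.8 CPM and then 9.37, 8.17 and 9.24 CPM (log2 fold change -0.60). DCLRE1C, the end-trimming nuclease Artemis, went from 7.70, 7.27 and 8.09 CPM to 4.85, 6.01 and 4.60 CPM (-0.57). The genes of the DNA-binding kinase complex fell by less, PRKDC by 0.49, XRCC5 by 0.43 and XRCC6 by 0.28 on the log2 scale.

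Of the 11 break sensing genes, 4 were lower, 3 higher and 4 did not pass (median -0.13). These shares, 36.4% lower and 27.3% higher, lie near those of all genes tested (28.3% and 29.8%), so they are no result about the class. CHEK1, the kinase that acts below ATR, was at 26.8, 27.8 and 23.7 CPM and then 13.2, 11.7 and 13 CPM (log2 fold change -1.05, SE 0.083, adjusted p = 6.51e-11). MRE11, the nuclease of the sensor complex, was at 9.71, 10.8 and 9.82 CPM and then 6.22, 6.19 and 6.32 CPM (-0.70), and its partner NBN at 51.1, 52.4 and 45.7 CPM and then 33.9, 35.4 and 33.5 CPM (-0.54). MDC1, the adaptor that reads phosphorylated H2AX, fell by 0.46. MDC1 shares exon sequence with TUBB on the other strand, and CHEK1 with STT3A on the same strand, both counted many times more.

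Those that rose were CHEK2, TP53BP1 and RNF8. CHEK2, the kinase below ATM, went from 6.44, 6.40 and 5.95 CPM to 8.20, 7.65 and 8.08 CPM (log2 fold change 0.34, SE 0.11, adjusted p = 0.00721). TP53BP1, which shields ends from resection, went from 81.4, 84.0 and 83.4 CPM to 99.9, 103 and 102 CPM (0.29, SE 0.052, adjusted p = 3.54e-05). RNF8, a ubiquitin ligase that acts at breaks, was at 15.4, 18.7 and 19 CPM and then 20.8, 19.1 and 20.8 CPM (0.19, adjusted p = 0.0354). The groups are apart for CHEK2 and TP53BP1, and barely so for RNF8, whose call was lost without proliferating replicate 1 (log2 fold change 0.09) or senescent replicate 1 (0.17) or 3 (0.16). The call of RNF8 was also lost under another of the alternatives listed below, with no library left out. The apex kinases did not pass, ATM with a log2 fold change of -0.16 (adjusted p = 0.11) and ATR with -0.13 (adjusted p = 0.0937).

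TOP2B and TDP2 both fell. TOP2B, the type 2 topoisomerase that non-cycling cells also make, was at 122, 123 and 105 CPM and then 54.7, 62.9 and 52.9 CPM (log2 fold change -1.04, SE 0.064, adjusted p = 5.01e-13). TDP2, the enzyme that removes the topoisomerase from the broken end, was at 50.2, 49.1 and 47.5 CPM and then 37, 37.9 and 36.6 CPM (-0.40, adjusted p = 4.31e-07). No library of one group reached the range of the other.

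Per kilobase of transcript, which allows genes to be set side by side, the Ku genes stood far above the rest. XRCC6 had the highest level and XRCC5 the next in all 4 groups, and BRCA2 and XRCC2 had the lowest. Summed over the class, homologous recombination genes went from 32.4 ± 1.17 CPM per kilobase (SD, n = 3) in proliferating to 18.5 ± 0.753 in senescent cells, and Fanconi genes from 20.6 ± 1.06 to 10.9 ± 0.498. End joining genes, carried by Ku, went from 379 ± 7.89 to 304 ± 12, and sensing genes from 46.8 ± 2.01 to 41.6 ± 0.708. Among the 44, XRCC4 moved from rank 14 to rank 8, CHEK2 from 16 to 9, EXO1 from 21 to 35 and RAD51AP1 from 22 to 36. These sums and ranks were not tested.

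Genes that work together did not always change together. The log2 ratio of FANCD2 to FANCI, partners in one ubiquitinated pair, was -1.52, -1.65 and -1.87 in proliferating and -3.34, -3.70 and -3.95 in senescent cells, although FANCI shares exon sequence with POLG on the other strand. CHEK1 to CHEK2 was at 0.89, 0.96 and 0.83 and then at -0.47, -0.55 and -0.48. Per kilobase, CHEK1 thus had the higher level in proliferating cells and CHEK2 in senescent cells. That order depends on the transcript lengths used, 4128 bases for CHEK1 and 1844 bases for CHEK2. Without this scaling CHEK1 was the higher in both groups, at 26.1 against 6.26 CPM and then 12.7 against 7.98 CPM. CHEK2 shares exon sequence with HSCB on the other strand, besides the overlap of CHEK1 with STT3A, so this ratio is less certain. BRCA1 to BARD1 moved from -0.27, -0.33 and -0.69 to 0.11, 0.76 and 0.43, and RAD50 to MRE11 from 1.40, 1.08 and 1.12 to 1.80, 2.13 and 1.96. The groups were separate in each of these. ATM to ATR overlapped, at -0.23, -0.22 and -0.38 and then -0.33, -0.14 and -0.45. XRCC5 to XRCC6 shifted by -0.15, from -0.8, -0.78 and -0.86 to -1.02, -0.91 and -0.95. NBN to MRE11 was at 2.96, 2.84 and 2.78 and then at 3.01, 3.08 and 2.97, barely apart. The ratios are given as descriptions without a test, and an exact permutation test of 3 libraries against 3 cannot go below p = 0.1.

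**Figure D3:**
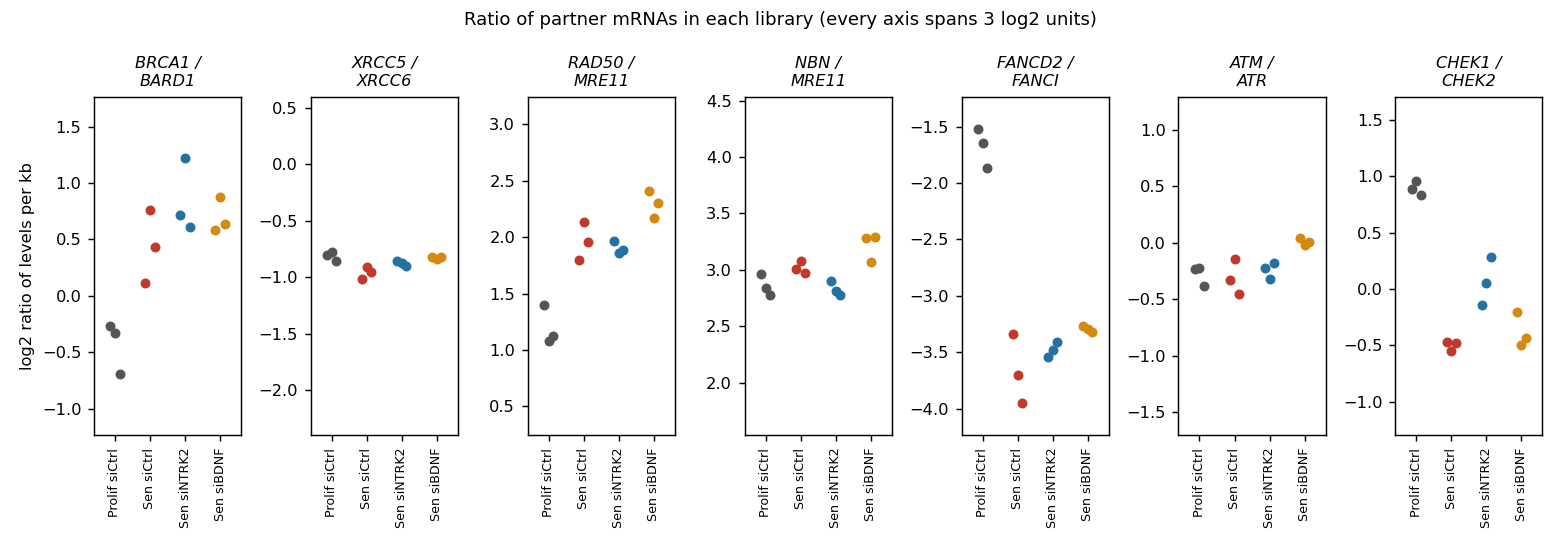
Each panel gives the log2 ratio of the levels per kilobase of a pair of partner mRNAs in the 12 libraries, on vertical axes that all span 3 log2 units. The FANCD2 to FANCI ratio drops in senescence from between -1.87 and -1.52 to between -3.95 and -3.34, and the CHEK1 to CHEK2 ratio crosses 0.

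In senescence, 31 of 48 other repair pathway genes were lower and 1 higher (64.6% and 2.08%, against 28.3% and 29.8% of all genes). Those that fell most were TOP2A, the topoisomerase of dividing cells (log2 fold change -3.22), CLSPN, which carries the ATR signal to CHEK1 (-2.60), USP1, which deubiquitinates FANCD2 (-1.65), and UBE2T, the Fanconi conjugating enzyme (-1.62). RPA2, a subunit of the single-strand binding protein, rose (0.56). Of 18 cell cycle markers 17 fell (94.4%) and none rose. Their summed level was 809 to 823 CPM in proliferating and 280 to 287 CPM in senescent siCtrl libraries. Among arrest markers, CDKN1A rose (1.62), GDF15 rose (2.52) and LMNB1 fell (-4.20). The part of the loss of cycling cells in the members' decreases was not tested.

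Silencing NTRK2 in senescent cells was followed by higher levels of many of the same set. Against siCtrl, 20 of 44 mRNAs were higher and 0 were lower at an adjusted p under 0.05, where 11.1% of all genes were called higher and 10.0% lower. DESeq2 also called 0 lower, and 1 member was lower at an unadjusted p under 0.05. Increases past 2-fold were those of RAD51AP1 and XRCC2, against 0.390% of all genes higher by that much and 0.567% lower. The libraries did not overlap for 22 members that were higher and 1 that was lower, against 16.8% and 16.1% of all genes. The median log2 fold change was 0.24, against 0.00 for all genes, and 40 of the 44 differences were above 0. Break sensing genes were called most often, 8 of 11, followed by 6 of 15 recombination, 3 of 8 Fanconi and 2 of 8 end joining genes and TOP2B.

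Among the members that passed, the largest changes were those of RAD51AP1, XRCC2 and BLM. This comparison shares the siCtrl-transfected senescent libraries with that of senescence, so their values in both are given side by side only. RAD51AP1 was at 1.62, 1.13 and 1.94 CPM with siNTRK2 against 0.624, 0.844 and 0.692 CPM with siCtrl, an increase of 2.17-fold (log2 fold change 1.12, SE 0.22, adjusted p = 0.00055). XRCC2 was at 0.679, 0.847 and 0.782 CPM against 0.392, 0.448 and 0.294 CPM (1.02, SE 0.33, adjusted p = 0.0281). BLM was at 0.792, 1.03 and 1.36 CPM against 0.410, 0.517 and 0.710 CPM (0.95, SE 0.26, adjusted p = 0.0115). All 3 stayed below their proliferating libraries. The calls of XRCC2 and BLM were both lost without siCtrl-transfected senescent replicate 1 or siNTRK2 replicate 3, and that of XRCC2 also without siCtrl-transfected senescent replicate 3 or siNTRK2 replicate 2. Calls with siNTRK2 were not lost through left-out libraries only. Under the other alternatives listed below, 9 of the 20 calls held throughout.

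BRIP1 was at 3.69, 4.74 and 4.28 CPM against 2.05, 2.52 and 2.54 CPM (log2 fold change 0.83, SE 0.13, adjusted p = 6.54e-05). POLQ was at 1.76, 1.55 and 1.55 CPM against 0.766, 1.10 and 1.18 CPM (0.67, adjusted p = 0.0162) and lost its call without siCtrl-transfected senescent replicate 1 or siNTRK2 replicate 1. FANCA was at 6.85, 6.45 and 7.38 CPM against 4.77, 5.19 and 4.45 CPM (0.52, adjusted p = 0.00204). In none of these did the groups overlap. BRCA1 was at 4.23, 4.37 and 3.89 CPM against 2.53, 3.43 and 2.99 CPM (0.48, adjusted p = 0.0074, lost without siCtrl-transfected senescent replicate 1). PRKDC, the catalytic kinase of end joining, was at 127, 135 and 126 CPM against 92.4, 100 and 87.0 CPM (0.47, SE 0.051, adjusted p = 2.54e-07), close to the proliferating libraries at 127 to 136 CPM. FANCD2 and EXO1, among the genes that fell furthest, had log2 fold changes of 0.45 (adjusted p = 0.0518) and 0.36 (adjusted p = 0.0983) and did not pass.

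Among the sensing genes, MRE11 had a log2 fold change of 0.41, ATM 0.38, MDC1 0.36, RAD50 0.35, ATR 0.32 and CHEK1 0.32. NBN and TP53BP1 had 0.22 each, with the call of NBN lost without siNTRK2 replicate 3. Over all alternatives the log2 fold change of NBN was 0.07 to 0.27. The calls of MRE11, ATM, ATR and TP53BP1 were also lost under 1 or more of the alternatives listed below. CHEK2 went the other way without passing (-0.24, adjusted p = 0.117). TOP2B was at 73.4, 73.3 and 80.6 CPM against 54.7, 62.9 and 52.9 CPM (0.42). PALB2 (0.33, adjusted p = 0.0454) and FANCI (0.26, adjusted p = 0.0349) passed narrowly, with libraries that overlapped those of siCtrl. RAD51D (0.31, adjusted p = 0.018) passed without overlap. Each of these genes lost its call without 1 or more of the libraries. Of the 48 other pathway genes 8 were higher and 0 lower (16.7% and 0.0%, against 11.1% and 10.0% of all genes). Their median log2 fold change was 0.07. CLSPN and TOP2A (1.11 each), the resolvase GEN1 (0.68) and RIF1, a partner of TP53BP1 (0.60), rose most among those that passed.

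**Figure D4:**
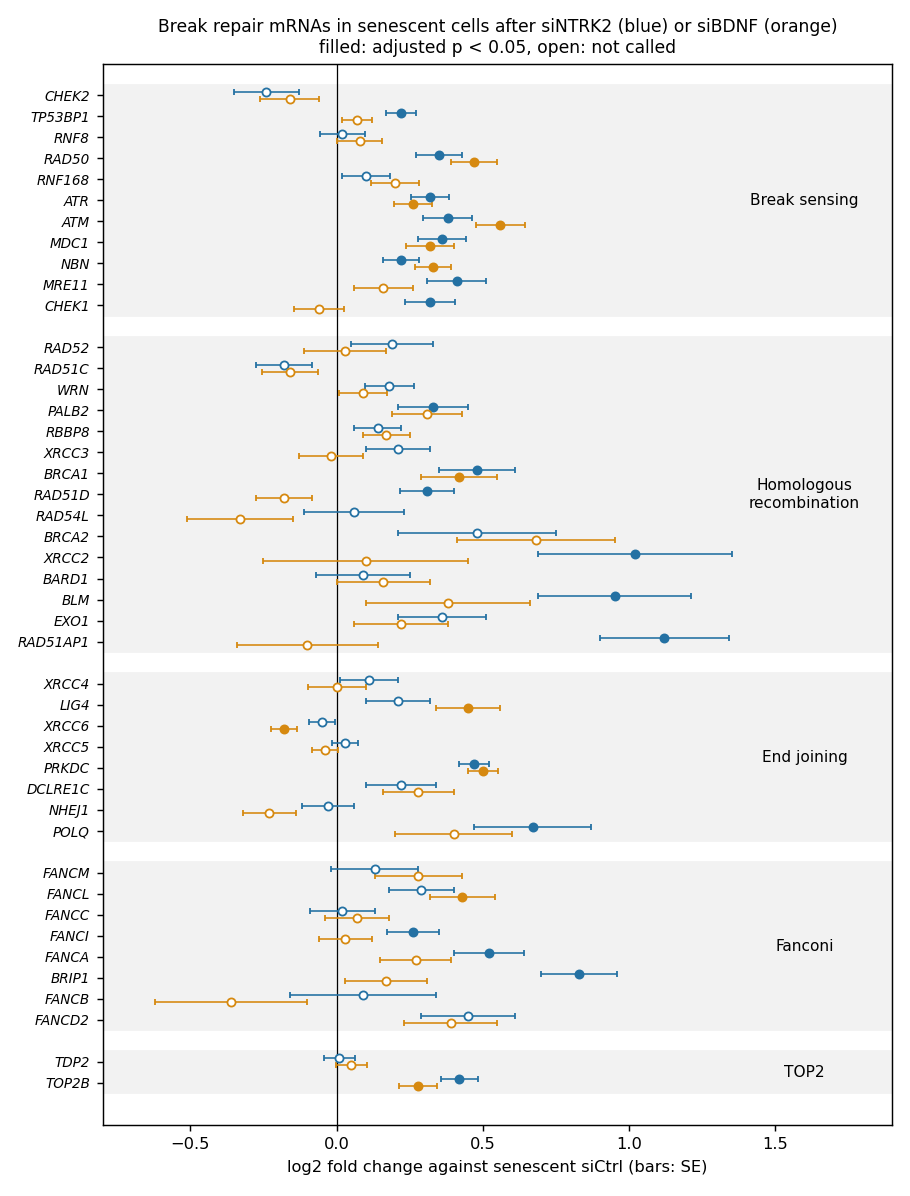
For each of the 44 mRNAs, the log2 fold change against siCtrl-transfected senescent cells is drawn for siNTRK2 (blue) and siBDNF (orange) with standard errors, and filled points passed an adjusted p of 0.05. RAD51AP1, XRCC2 and BLM reach 1.12, 1.02 and 0.95 with siNTRK2, while the siBDNF points that passed lie between -0.18 and 0.56.

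Cell cycle and arrest markers moved at the same time. With siNTRK2, 10 of the 18 cell cycle markers rose and 2 fell, and their summed level was 288 to 302 CPM against 280 to 287 CPM with siCtrl. The sum hides opposite changes, with MKI67 3.28-fold and PLK1 2.16-fold higher and the abundant PCNA lower (log2 fold change -0.30). Of the 5 arrest markers, CDKN1A fell by 0.50, GDF15 by 0.62 and MDM2 by 0.23 on the log2 scale. CDKN2A (0.21) and LMNB1 (0.62) rose, and all of these passed. The part of the cell cycle and arrest markers in the members' increases was not tested.

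With siBDNF, 10 of 44 mRNAs were higher and 1 was lower than with siCtrl, where 10.3% of all genes were called higher and 10.2% lower. The median log2 fold change was 0.16, against 0.00 for all genes. The libraries did not overlap for 16 members that were higher and 2 that were lower, against 19.3% and 18% of all genes. Among the members that passed, ATM rose most, to 39.9, 41.1 and 39.1 CPM from 26.7, 30.9 and 23.7 CPM (log2 fold change 0.56, SE 0.084, adjusted p = 2.88e-05), above its proliferating libraries as well. PRKDC was at 129, 133 and 133 CPM against 92.4, 100 and 87.0 CPM (0.50, adjusted p = 1.18e-07). RAD50 was at 41.4, 42.6 and 38.7 CPM against 26.2, 32.7 and 29.6 CPM (0.47, adjusted p = 0.000106). The groups did not overlap in any of the 3.

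LIG4 was at 15.6, 15.7 and 16.2 CPM against 10.4, 12.6 and 11.8 CPM (log2 fold change 0.45, adjusted p = 0.00458). FANCL was at 9.04, 9.13 and 9.43 CPM against 6.73, 6.77 and 7.01 CPM (0.43, adjusted p = 0.00481). BRCA1 was at 3.85, 4.02 and 4.12 CPM against 2.53, 3.43 and 2.99 CPM (0.42, adjusted p = 0.0177). Of these, BRCA1 lost its call without siCtrl-transfected senescent replicate 1 or without siBDNF replicate 2 or 3. FANCL lost its call under 1 or more of the alternatives listed below, and LIG4 kept its call under all of them. NBN was at 42.2, 44.2 and 43.1 CPM against 33.9, 35.4 and 33.5 CPM (0.33), and MDC1 at 18.7, 19.7 and 18.3 CPM against 15.6, 16.6 and 13.4 CPM (0.32, lost without siCtrl-transfected senescent replicate 3 or siBDNF replicate 2). TOP2B (0.28) and ATR (0.26) passed as well, and both lost their calls under 1 or more of the alternatives. XRCC6 was the only member called lower with either siRNA, at 350, 351 and 359 CPM against 409, 376 and 414 CPM (-0.18, adjusted p = 0.00618), and it did not pass without siCtrl-transfected senescent replicate 3. Of the 48 other pathway genes 4 were higher and 3 lower (8.33% and 6.25%, no more than the 10.3% and 10.2% of all genes), among them GEN1 (0.74), RIF1 (0.64), USP1 (0.46) and SEM1, a BRCA2-bound protein (-0.24). With siBDNF, 2 of the 18 cell cycle markers were higher and 1 lower (11.1% and 5.56%), and 0 of the 5 arrest markers passed.

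Transcript length went along with these changes. The members' canonical transcripts had a median length of 5168 bases, against 2519 bases for the genes tested. Across the 44 members, Spearman's rho between length and log2 fold change was 0.44 with siNTRK2 and 0.49 with siBDNF, and across 20738 genes it was 0.15 and 0.26. Genes share their libraries, so these are descriptions. With a length trend taken out library by library, 16 members were higher and 0 lower with siNTRK2, and 7 were higher and 3 lower with siBDNF. With siBDNF the log2 fold changes of BRCA1, MDC1 and ATR then did not pass (0.30, 0.19 and 0.11), and with siNTRK2 those of POLQ, PALB2, FANCI, RAD51D and TP53BP1 did not (0.54, 0.29, 0.20, 0.16 and 0.06).

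**Figure D5:**
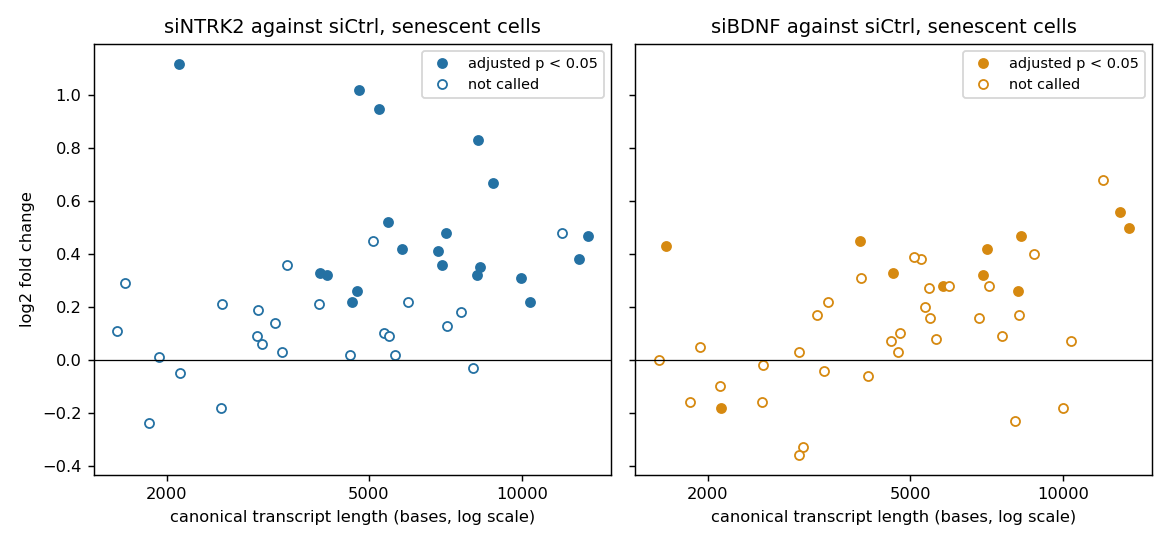
The log2 fold change of each of the 44 mRNAs with siNTRK2 (left) and siBDNF (right) is plotted against the length of its canonical transcript on a log axis, with filled points where the adjusted p was under 0.05. Longer transcripts lie higher in both panels (rho 0.44 and 0.49), while RAD51AP1, the highest point on the left at 1.12, is among the shorter ones.

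The comparisons with siCtrl share their control libraries, so both siRNAs were also tested directly against each other. With siNTRK2, 5 members were higher and 0 lower than with siBDNF, with 2 lower at an unadjusted p under 0.05 and 0 lower by DESeq2. The share of members called higher, 11.4%, is near the 8.84% of all genes, and 7.86% of all genes were called lower. RAD51AP1 was at 1.62, 1.13 and 1.94 CPM against 0.641, 0.709 and 0.655 CPM, a difference of 2.33-fold (log2 fold change 1.22, SE 0.22, adjusted p = 0.000306), and its siBDNF libraries were within the range of siCtrl (-0.10, adjusted p = 0.843). BRIP1 was at 3.69, 4.74 and 4.28 CPM against 2.2, 2.79 and 2.90 CPM (0.66, SE 0.13, adjusted p = 0.000934), with 0.17 between siBDNF and siCtrl (adjusted p = 0.454). RAD51D was at 7.1, 7.5 and 7.1 CPM against 5.59, 5.16 and 4.82 CPM (0.49, SE 0.095, adjusted p = 0.000621). In these 3 every siNTRK2 library exceeded every siBDNF library.

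CHEK1 was at 13.9, 16.9 and 16.8 CPM with siNTRK2 against 11.6, 12.7 and 11.9 CPM with siBDNF (log2 fold change 0.39, SE 0.086, adjusted p = 0.00219). TP53BP1 was at 115, 127 and 112 CPM against 102, 114 and 103 CPM (0.15, adjusted p = 0.044), with overlapping libraries. It lost its call without siNTRK2 replicate 2, siBDNF replicate 1 or siBDNF replicate 3, and also with library totals only or in a fit of only the groups compared. Without siBDNF replicate 2, 8 members were higher. XRCC2 and BLM, whose increases passed with siNTRK2, were not shown to differ between the siRNAs (XRCC2 0.92, adjusted p = 0.055; BLM adjusted p = 0.146). Of the other pathway genes 5 were higher and 0 lower (10.4% higher, near the 8.84% of all genes), led by TOP2A (0.98), the break-sensing polymerase PARP1 (0.35), LIG3 (0.31) and SEM1 (0.29). Markers differed here too. Of the 18 cell cycle markers 11 were higher with siNTRK2 and 2 lower (61.1% and 11.1%), and of the 5 arrest markers 1 was higher and 3 lower. The part of these markers in the members' differences was not tested.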

How the data were processed

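Poly(A) RNA of 12 WI-38 libraries, 3 per group, was sequenced in read pairs after stranded library preparation. The authors trimmed adapters with Cutadapt, aligned with STAR 2.4.0j to hg19 and made the deposited counts, whole reads per Ensembl gene without normalization, with featureCounts 1.6.4. The strand setting and the handling of overlapping genes are not given in the sources used here. All 44 members matched 1 identifier each through a table of gene names (55538 of 57773 identifiers had a symbol).

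Counts were scaled by TMM, filtered with filterByExpr and fitted with 1 term per group over all 12 libraries in edgeR 4.0.16 (R 4.3.3). Quasi-likelihood p-values were adjusted by Benjamini-Hochberg over 21518 genes, and a gene was called at an adjusted p under 0.05. The standard error (SE) of a change is its log2 size over the root of its F statistic. CPM are TMM-scaled, and levels per kilobase use the canonical transcript of GENCODE v44 lifted to GRCh37. Promoter windows are from RefSeq, build GRCh38.p14. Detection was set at 3 counts, which covers counting error only. The code was tested on simulated counts. Figures were drawn with matplotlib 3.10.9.

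Members, role classes and lists were chosen with earlier results of these data known. Values of every library are given for the 8 members with the largest change that passed in each comparison, the 3 with the largest change of each role class in senescence, members that went against their class, and those that passed the direct comparison. Partner ratios are printed for the proliferating and the siCtrl-transfected senescent libraries, and those of the siNTRK2 and siBDNF libraries are drawn only. Other values were chosen after they were seen. Alternatives were DESeq2 1.42.0, its size factors, library totals, no low-count filter, a stricter filter of 10 counts in each library, a fit of only the groups compared, a replicate block, an offset for transcript length (a natural spline with 4 degrees of freedom per library) and each library left out. After the data were seen, an offset for length with GC content was added, and the canonical transcript replaced summed exon length as the measure of length, with the latter kept as an alternative.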

Additional observations from a re-analysis of the deposited data

Results flagged for a closer look

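In senescent cells, 5 members differed between siNTRK2 and siBDNF by the direct edgeR test, each higher with siNTRK2. That is 11.4% of the 44, near the 8.84% of all genes called higher in this comparison, so the count itself says nothing particular about the members. The log2 difference was 1.22 for RAD51AP1, 0.66 for BRIP1, 0.49 for RAD51D, 0.39 for CHEK1 and 0.15 for TP53BP1. The first 4 kept their call under every alternative, and TP53BP1 did not. RAD51D shares exon sequence with a readthrough gene and CHEK1 with STT3A, and the part of those reads was not tested. In the same comparison 11 of the 18 cell cycle markers were higher with siNTRK2 and 2 lower, and the part of these markers was not tested either.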

How the results depend on the processing

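No member that passed changed its direction under any alternative. Of the calls, 33 of 36 in senescence, 8 of 20 with siNTRK2, 5 of 11 with siBDNF and 4 of 5 in the direct comparison stayed past the threshold under every alternative, leave-one-out included. With leave-one-out set aside, these counts were 33, 9, 6 and 4. In senescence, 7 members were higher with the offset for length and GC content, and the median log2 fold change was -0.45 with the length offset, -0.46 with length and GC and -0.47 with summed exon length. With siNTRK2 these medians were 0.19, 0.18 and 0.15, and summed exon length gave 13 higher and 1 lower (RAD51C). With siBDNF the medians were 0.08, 0.06 and 0.10, and 0.22 with library totals only; summed exon length gave 6 higher, and each of these offsets gave 3 lower. In the direct comparison, length with GC gave 9 higher, only the groups compared gave 1 lower, and library totals gave a median of 0.03. Differences that had not passed changed sign with length and GC for ATM (0.01) and ATR (0.08) in senescence and BRIP1 with siBDNF (-0.04), and RAD51AP1 with siBDNF did so without siCtrl-transfected senescent replicate 2 (0.03; -0.19 to 0.03 over the libraries left out). Leaving out 1 library gave 3 to 4 higher, 32 to 34 lower and 16 to 17 over 2-fold lower in senescence (median -0.61 to -0.53), 14 to 23 higher with siNTRK2 (0.21 to 0.29), 8 to 13 higher and 0 to 2 lower with siBDNF (0.13 to 0.21), and 4 to 8 higher in the direct comparison (0.06 to 0.09). Unless stated above, the cause was not tested. Libraries with the same replicate number did not deviate together (mean correlation 0.000686, against -0.000357 for different numbers), and with the replicate number as a block 4 members were higher and 32 lower in senescence, 21 and 0 with siNTRK2, 10 and 1 with siBDNF, and 6 and 0 in the direct comparison. The lowest-level members, such as XRCC2 with 9 to 101 counts a library, have the widest errors.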
